A study of Mus musculus with 4 samples.

Results

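The genes described here are 10 genes of the liver X receptors (LXRs) and of cholesterol efflux in mouse tumour macrophages: Nr1h3, Nr1h2, Abca1, Abcg1, Mylip, Apoe, Apoc2, Lpcat3, Smpdl3a and Npc1. They were chosen by name, with earlier results of these data known. Each was matched through its Ensembl identifier to 1 row of a table of 53139 loci, and all 10 were among the 12648 loci the authors had tested. RNA was sequenced from macrophages derived from MCA fibrosarcoma tumours (tumour line 9609 parent, genotype WT), which were treated in culture with exosomes, small vesicles released by cells. In 2 samples the exosomes were labelled MEK1-hi, and in the other 2 they were labelled MEK1-low and GFP. MEK1 is a kinase that activates the ERK kinases, and the comparison addresses the response of macrophage transcripts to exosomes rich or poor in MEK1. The MEK1 content cannot be told apart from the GFP marking, no untreated macrophages were among the samples, and nothing in the labels tells whether samples of the same treatment were separate cultures or animals.

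LXR alpha (encoded by Nr1h3) and LXR beta (encoded by Nr1h2) are nuclear receptors that bind DNA together with a retinoid X receptor and are switched on by oxysterols and by desmosterol, signs of a surplus of cholesterol. In macrophages they raise transcription of genes that carry cholesterol out of the cell (Abca1, Abcg1, Apoe), remodel its phospholipids (Lpcat3) and limit its uptake (Mylip). The transcription factor SREBP2 works the other way, raising cholesterol synthesis and uptake when sterols are scarce.

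Levels are the authors' deposited group values in FPKM (fragments per kilobase of transcript, scaled to library size), 1 value per group, and a pair of levels is given with MEK1-low first and MEK1-hi second. No value per sample was used, so no SD, no interval of a difference and no overlap between groups can be given, and the depth of each sample is unknown. Differences are given as MEK1-hi minus MEK1-low on the log2(FPKM + 1) scale. A gene was called changed where the q-value of the authors' Cuffdiff test was under 0.05. Over all tested loci 2.44% were called, 0.751% higher and 1.69% lower with MEK1-hi exosomes.

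The libraries carried macrophage transcripts. All 10 macrophage markers examined were tested, at levels from 107 to 13148 FPKM, and summed to 19639 FPKM in the MEK1-low group and 20703 FPKM in the MEK1-hi group. Of these, Cd14 was called lower, and 0 were called higher. The 5 T cell markers, 0 of them tested, summed to 0.556 and 0.350 FPKM, and the 3 B cell markers stood at or under 0.0321 FPKM, with Cd79a listed at 0. The 6 fibroblast or fibrosarcoma markers summed to 4.55 and 3.99 FPKM, the 3 endothelial markers to 1.62 and 1.20 FPKM and the 3 dendritic cell markers to 0.424 and 0.342 FPKM. Of 5 neutrophil markers, S100a8 stood at 35.5 and 22.6 FPKM while 4 were listed at 0 with either treatment (Ly6g, S100a9, Mpo and Elane). Of all 25 markers of other cells 6 were tested and 0 were called. The part of other cells in the results below was not tested, and less RNA per cell cannot be told apart from fewer cells of a type.

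The LXR response element is a repeat of the half-site AGGTCA with a spacer of 4 bases, and it was searched for in promoter windows to show which members carry such letters near their start. The windows run from 250 bases before to 50 bases after a gene's start and come from RefSeq on GRCm38.p6, the build called mm10. They covered 7 of the 10 members in 10 windows. Abcg1, Smpdl3a and Npc1 had no entry. The pattern, AGGTCA then any 4 bases then AGGTCA again, was searched on both strands with up to 3 mismatches among the 12 fixed bases. It matched 1 of the 10 members' windows, that of Abca1, against 21.9% of all 32851 windows, and 5 of 27 windows of the other LXR and SREBP2 target genes listed below. The element bound by SREBPs, searched as TCAC, any base, then CCAC on both strands with no mismatch, matched 0 of the 10 members' windows and 1.24% of all windows. Among the 27 windows of the other target genes it matched 1, that of Hmgcs1, which is in the SREBP2 list. The Abca1 window (chr4:53159846-53160145, minus strand, printed 5′ to 3′ along the gene) is shown in full because its site, in capitals, lies 67 to 52 bases before the start.

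Abca1 promoter: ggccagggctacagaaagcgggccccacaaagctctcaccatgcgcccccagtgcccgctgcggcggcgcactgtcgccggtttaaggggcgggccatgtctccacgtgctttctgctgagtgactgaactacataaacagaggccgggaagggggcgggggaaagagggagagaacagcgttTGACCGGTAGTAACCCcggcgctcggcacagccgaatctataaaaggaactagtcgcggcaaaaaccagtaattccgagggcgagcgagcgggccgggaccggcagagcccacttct

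The Abca1 site, read on the strand opposite to the gene as are both others, is set beside the sites found in the windows of Fasn (fatty acid synthase, chr11:120824498-120824797, minus strand) and Srebf1 (the lipogenic factor SREBP1, chr11:60210422-60210721, minus strand), both known LXR targets outside the 10 members, which were picked for their likeness to it after the search. Capitals mark the pattern and its spacer.

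Abca1 site: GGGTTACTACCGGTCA
Fasn site: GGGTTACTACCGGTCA
Srebf1 site: GGGTTACTGGCGGTCA

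Each had 3 mismatches to the pattern. The Fasn site was the same 16 bases as that of Abca1, the Srebf1 site differed from it at 2 bases, and 2 of the 32851 windows held the Abca1 letters exactly. The matching Srebf1 window was 1 of 3 for that gene, lying at an internal start, and the levels below are of whole loci, so they do not give the transcript that begins next to each site. Abca1 stood at 60.0 FPKM in the MEK1-low group and 80.9 FPKM in the MEK1-hi group. Fasn stood at 9.91 and 6.99 FPKM, and the Srebf1 locus, which also holds Mir6922, at 23.8 and 22.0 FPKM. None of these genes was called (the authors' deposited table gave q = 0.189, 0.968 and 0.999 in that order). A match describes letters only, and no match says only that these letters are not in this window.

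Of the 10 members, 1 was called, the locus of Nr1h3, which fell, and 0 were called higher, where 1.69% of all tested loci were called lower and 0.751% higher. By value alone 5 members were higher and 5 lower with MEK1-hi exosomes, beside 50.2% of all tested loci that were higher and 49.8% that were lower. Going by the authors' deposited table without adjustment, p was under 0.05 for Abca1, Abcg1 and Mylip, all higher, and for Nr1h3, which was lower, where 3.53% of tested loci were higher and 5.12% lower by that rule. The median difference over the members was 0.03 on the log2(FPKM + 1) scale, beside 0.00 over the 11804 loci tested at 1 FPKM or more. The SD over those loci was 0.32.

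**Figure D1:**
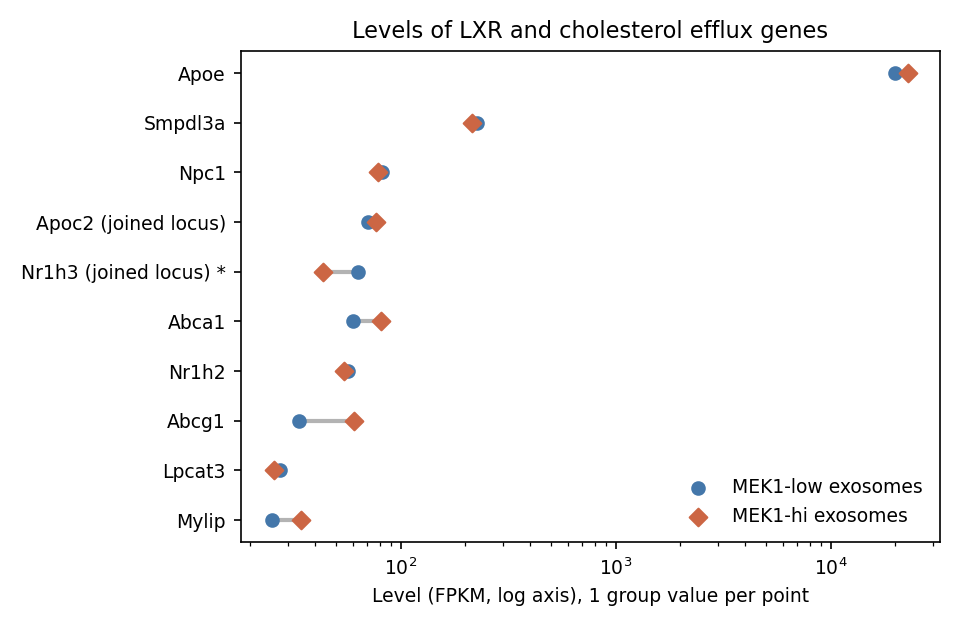
Level of each member in FPKM (log axis), with 1 group value for MEK1-low exosomes (circle) and 1 for MEK1-hi exosomes (diamond), joined by a grey line, no error bars being possible, and an asterisk where the authors' test called the locus. Apoe lies far to the right of all others at 19858 and 22876 FPKM, Nr1h3 moves left, and Abcg1 has the longest line to the right.

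The receptor genes stood close to each other in level and differed in call. Nr1h3 (ENSMUSG00000002108.10; chromosome 2, 91184061 to 91202834, minus strand) stood at 63.1 FPKM in the MEK1-low group and 43.7 FPKM in the MEK1-hi group. This is a fall of 0.52 on the log2(FPKM + 1) scale and an FPKM value 1.44-fold lower with MEK1-hi exosomes (the authors' deposited table gave p = 0.0007, q = 0.0305, test statistic -2.40). A lower difference than that of Nr1h3 was found in 4.19% of loci at 1 FPKM or more. The row of Nr1h3 joins it with Gm13783, a processed transcript on the same strand whose exons share 34 of their 732 bases with those of Nr1h3, so the level of the row cannot be split between them.

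Nr1h2 (ENSMUSG00000060601.13; chromosome 7, 44549616 to 44553951, minus strand) stood at 57.0 and 54.7 FPKM, a difference of -0.06 (the authors' deposited table gave p = 0.738, q = 0.999). The level of the joined Nr1h3 row was thus 1.11 times that of Nr1h2 with MEK1-low and 0.799 times with MEK1-hi exosomes. By value the order turned, but without a spread between samples it cannot be said whether the receptors differed in level. Whether the change of Nr1h3 differed from that of Nr1h2 was not tested. The sum of these rows, Gm13783 included, was 120.01 FPKM in the MEK1-low group and 98.4 FPKM in the MEK1-hi group.

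The exporter genes both had higher values with MEK1-hi exosomes, and neither was called. Abcg1, whose product passes cholesterol to high-density lipoprotein particles (ENSMUSG00000024030.7; chromosome 17, 31057675 to 31117988, plus strand), stood at 33.6 and 60.7 FPKM. Its difference of 0.83, a 1.80-fold higher level, was the widest among the members, and 99.3% of loci at 1 FPKM or more had a lower one. Its p-value in the authors' deposited table was 0.0033 and its q-value 0.103. Abca1, whose product loads cholesterol and phospholipid onto lipid-poor apolipoprotein A-I (ENSMUSG00000015243.4; chromosome 4, 53030787 to 53159895, minus strand), showed a 1.35-fold higher level and a difference of 0.42 (the authors' deposited table gave p = 0.00800, q = 0.189). The level of Abca1 was 1.78 times that of Abcg1 with MEK1-low and 1.33 times with MEK1-hi exosomes. Together the exporter genes stood at 93.7 and 141.5 FPKM.

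Mylip encodes an E3 ubiquitin ligase, also called IDOL, that marks lipoprotein receptors for breakdown. Mylip (ENSMUSG00000038175.10; chromosome 13, 45389742 to 45412022, plus strand) had the lowest level of the members with MEK1-low exosomes, at 25.3 FPKM, and stood at 34.5 FPKM with MEK1-hi exosomes. The difference was 0.43, a 1.36-fold higher level, and was not called (the authors' deposited table gave p = 0.0034, q = 0.104). The q-values of Mylip and Abcg1 also missed a threshold of 0.1, which 3.11% of tested loci passed.

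Apoe and Apoc2, the apolipoprotein genes, lie in 1 cluster on chromosome 7, and the level of Apoe was 281 times that of the Apoc2 locus in the MEK1-low group and 299 times in the MEK1-hi group. Apoe encodes a secreted protein that accepts cholesterol outside the cell (ENSMUSG00000002985.16; 19696109 to 19699188, minus strand). It stood at 19858 FPKM in the MEK1-low group and 22876 FPKM in the MEK1-hi group, rank 2 among all tested loci in both groups. This single gene held 3.08% and 3.65% of the FPKM total. Its difference of 0.20 was not called (the authors' deposited table gave p = 0.488, q = 0.999). The row of Apoc2, the cofactor of lipoprotein lipase (ENSMUSG00000002992.17; 19671579 to 19677941, minus strand), joins it with Apoc4 and Gm44805. It stood at 70.8 and 76.6 FPKM, a difference of 0.11 (the authors' deposited table gave p = 0.484, q = 0.999). Gm44805 shares 646 of its 765 exonic bases with Apoc2 and 119 with Apoc4, while the annotated exons of Apoc2 and Apoc4 share 0 bases, so the joined level cannot be split between these genes. Apoc1, between Apoe and Apoc4 in the cluster, stood at 2.18 and 4.40 FPKM (the authors' deposited table gave p = 0.0812, q = 0.722).

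The remaining members had slightly lower values with MEK1-hi exosomes and were not called. Smpdl3a, known as an LXR target in human macrophages, encodes a phosphodiesterase of the acid sphingomyelinase family (ENSMUSG00000019872.13; chromosome 10, 57794335 to 57811830, plus strand) and stood at 227 and 215 FPKM. It had the second-highest level among the members in both groups. Npc1, the lysosomal membrane protein that releases cholesterol taken up by the cell (ENSMUSG00000024413.14; chromosome 18, 12189692 to 12236400, minus strand), stood at 82.3 and 78.3 FPKM. Lpcat3, an enzyme that places polyunsaturated fatty acids in phospholipids (ENSMUSG00000004270.13; chromosome 6, 124663027 to 124704418, plus strand), stood at 27.4 and 25.9 FPKM. Their differences were -0.08, -0.07 and -0.08, and each had a q-value of 0.999 in the authors' deposited table. Larger absolute differences were found in 67.9% to 71.1% of loci at 1 FPKM or more. The spans of Npc1 and Lpcat3 overlap those of other measured genes, Rmc1 at 35.0 and 31.8 FPKM and Emg1 at 65.3 and 65.8 FPKM, which have rows of their own.

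In the order of levels, Apoe and Smpdl3a were first and second in both groups. Nr1h3 went from place 5 to place 8, Abca1 from 6 to 3 and Abcg1 from 8 to 6. Apart from Apoe and Smpdl3a, all levels lay between 25.3 and 82.3 FPKM, and without a spread between samples it cannot be said which neighbours in that order differ.

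**Figure D2:**
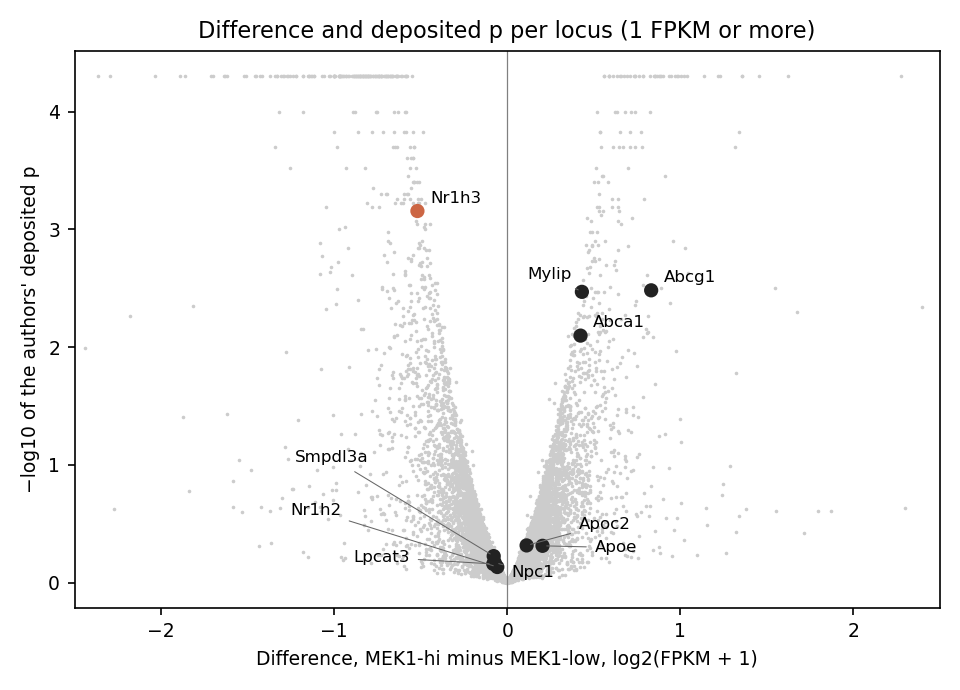
Difference between groups on the log2(FPKM + 1) scale against the −log10 of the authors' deposited p for loci tested at 1 FPKM or more (grey; 14 of 11804 lie beyond the horizontal axis), with the 10 members as large points, the called one coloured. Nr1h3 lies on the left at -0.52, Mylip, Abca1 and Abcg1 on the right at 0.42 to 0.83, and the other members between -0.08 and 0.20 at the foot of the cloud.

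Receptor partners and coregulators of LXR showed no call in either direction among 11 tested genes, 6 of them with higher and 5 with lower values, and a median difference of 0.01. Cuffdiff called 0, beside 2.44% of all tested loci. Without adjustment 1 had a p under 0.05, in the higher direction, as had 3.53% of all tested loci. The retinoid X receptor gene Rxra, among the most abundant of the list, stood at 37.5 and 39.9 FPKM (the authors' deposited table gave q = 0.999). Pparg, a nuclear receptor for fatty acids that also pairs with the retinoid X receptors, stood at 17.5 and 25.8 FPKM (the authors' deposited table gave p = 0.00780, q = 0.187).

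Among LXR target genes outside the 10 members, 14 of 18 loci were tested. By the authors' call 1 rose and 0 fell, where 0.751% of all tested loci were called higher and 1.69% lower. The 1 that rose was the locus of Scd2, a fatty acid desaturase, which also holds Mir5114, from 16.4 to 26.8 FPKM (the authors' deposited table gave q = 0.00349). Values were higher in 9 and lower in 5, with a median difference of 0.23. At an unadjusted p under 0.05, 3.53% of all tested loci were higher and 5.12% lower. In this list 5 passed that threshold, all of them higher. Besides Scd2 these were Arl4c, a small GTPase of the ARF-like family, at 52.4 and 66.3 FPKM, Tgm2, a transglutaminase, at 53.4 and 68.2 FPKM, Cd5l, a secreted macrophage protein, at 2.77 and 4.24 FPKM, and the locus of Rab27a and Gm27186 at 0.553 and 1.02 FPKM. Their q-values lay between 0.260 and 0.517 in the authors' deposited table. The related desaturase gene Scd1 stood at 1.03 and 0.997 FPKM (the authors' deposited table gave q = 0.999).

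Of the genes that make or remove oxysterols and late sterol intermediates, 8 of 11 were tested, and the median difference was -0.22. Without adjustment, p was under 0.05 for 2 lower and 0 higher, beside 5.12% and 3.53% of all tested loci. By the authors' call 2 fell and 0 rose, where 1.69% of all tested loci were called lower and 0.751% higher. Sc5d, an enzyme of the last steps of cholesterol synthesis, was among those that fell, from 10.5 to 4.92 FPKM (the authors' deposited table gave q = 0.00349). The oxysterol-forming enzyme genes Cyp27a1 (14.0 and 11.9 FPKM) and Ch25h (1.42 and 1.59 FPKM) were not called (the authors' deposited table gave q = 0.999 for each).

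Genes of sterol delivery inside the cell, ester storage and other exporters had 15 of 17 members tested, with a median difference of -0.06. Of these, 0 were called higher and 1 lower, beside 0.751% and 1.69% of all tested loci. Without adjustment, p was under 0.05 for 2 higher and 2 lower, beside 3.53% and 5.12% of all tested loci. Stard4, a cytosolic sterol carrier, fell from 5.32 to 2.52 FPKM (the authors' deposited table gave q = 0.00349). Gramd1b, which moves cholesterol from the plasma membrane to the endoplasmic reticulum, stood at 8.29 and 13.5 FPKM (the authors' deposited table gave q = 0.0570). Plin2, which coats lipid droplets, stood at 610 and 784 FPKM (the authors' deposited table gave q = 0.455). Cav1, which encodes caveolin 1, stood at 73.8 and 35.9 FPKM (the authors' deposited table gave q = 0.0734). Npc2, the lysosomal partner of Npc1, stood at 489 and 459 FPKM, and the exporter gene Abca7 at 11.7 and 9.62 FPKM, neither called.

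Lipoprotein uptake receptors went both ways, with a median difference of -0.14. Without adjustment, p was under 0.05 for 2 higher and 2 lower, beside 3.53% and 5.12% of all tested loci. Of the 7 tested, 1 was called higher and 2 lower, beside 0.751% and 1.69% of all tested loci. Olr1, a receptor of oxidised lipoproteins, was among those that fell, from 5.34 to 2.58 FPKM, and Cd36, a scavenger receptor, rose by 0.95 on the log2(FPKM + 1) scale. For these genes the authors' deposited table gave q = 0.0157 and 0.00349 in that order. Msr1, another scavenger receptor, stood at 270.1 and 417 FPKM (the authors' deposited table gave q = 0.0670).

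SREBP2 target genes, with Srebf2 itself and its regulators, had lower values in 13 of 14 tested, and a median difference of -0.59. Without adjustment, p was under 0.05 for 8 lower and 0 higher, beside 5.12% and 3.53% of all tested loci. By the authors' call 5 fell and 0 rose, where 1.69% of all tested loci were called lower and 0.751% higher. The 5 were Srebf2, in a locus joined with Gm49502, from 32.8 to 17.4 FPKM, Insig1, from 18.3 to 10.04 FPKM, Hmgcs1, from 20.9 to 13.3 FPKM, and the synthesis enzyme genes Sqle, from 10.4 to 4.995 FPKM, and Msmo1, from 36.1 to 19.8 FPKM. Each had a q-value of 0.00349 in the authors' deposited table. Scap, the escort of SREBP, was the 1 with a higher value, at 11.3 and 12.8 FPKM. Of other apolipoproteins and lipoprotein enzymes, 1 of 8 was tested, Lcat, at 0.750 and 0.407 FPKM and not called. Lipc followed it in mean level, at 0.240 and 0.173 FPKM, untested, and Apob and Apoc3 were listed at 0 in both groups.

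**Figure D3:**
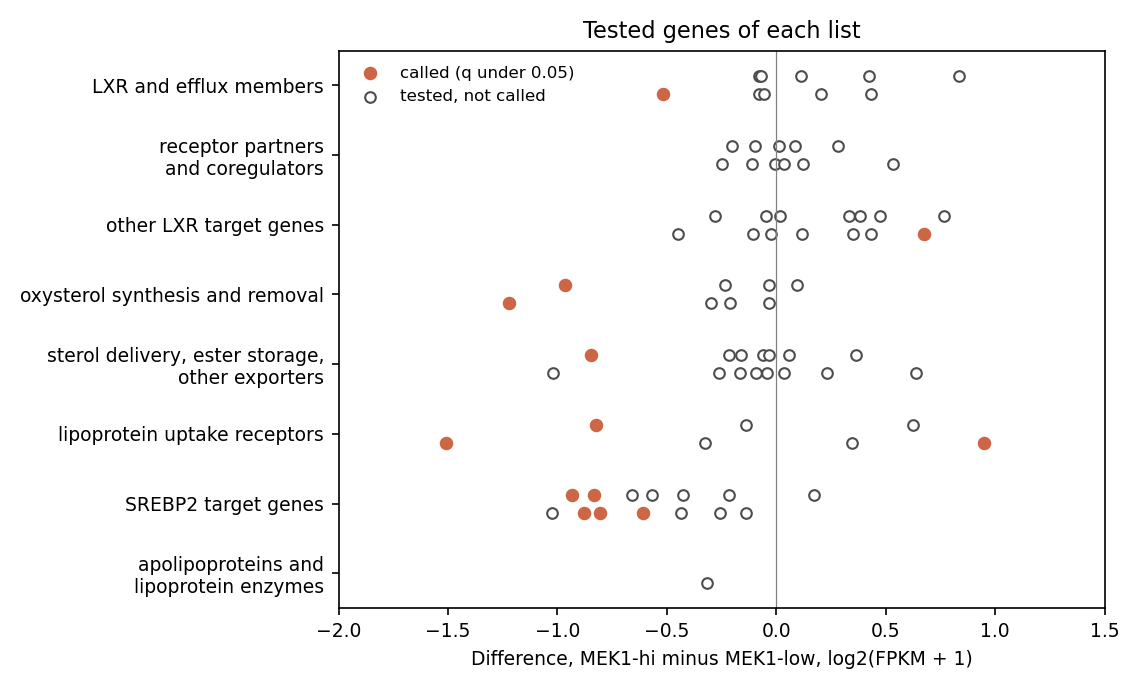
Difference between groups on the log2(FPKM + 1) scale for each tested gene of the members and of the 7 lists, filled where called by the authors' test, with points set alternately up and down only to keep them apart. The members spread to both sides of 0, with Nr1h3 as the single filled point, while 13 of 14 points of the SREBP2 list lie left of 0.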

How the data were processed

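RNA was sequenced from 4 samples of mouse tumour macrophages, 2 per exosome treatment. Per the submitters' processing notes, the build was mm10 and the tools were TopHat, Cufflinks and Cuffdiff, after quality control with FastQC 0.73. Settings were not given in the sources used. Per the file headers, the authors deposited a Cuffdiff gene table with 1 FPKM per group, a test score (the test statistic), a p-value and a q-value for each locus. The table names the groups GFP exo and MEK1 exo, and the first was matched to MEK1-low exosomes through the treatment label. Whether fragments were counted by strand is likewise not given, and joined loci cannot be split.

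With Python 3.11.15, pandas 2.3.3 and numpy 2.4.6, symbols were matched by Ensembl identifier, gene positions were taken from GENCODE M21 (mm10), and log2 differences were computed with a pseudocount of 1 FPKM. No test was run. The p-values are the authors', with q-values that equal a Benjamini-Hochberg adjustment within 5.19e-07. How Cuffdiff modelled the spread behind them is not known, as its settings were not given. They reach no further than the samples sequenced, and the spread between those samples could be technical. No deposited p was under 5e-05. Re-adjustment was tested on simulated p-values, and the motif search on random sequences with exact copies of the LXR pattern planted in them. Matches with mismatches and the SREBP pattern were not covered by that check. The members, the 7 lists and the motifs were chosen with earlier results of these data known, and loci of members were left out of the lists' counts. The genes named were all members, every called member of a list or else its 2 highest, and members at an unadjusted p under 0.05. Some genes that this rule took are not reported here, though counts and medians include them. Fasn, Srebf1, Scd1, Apoc1, Cyp27a1, Ch25h, Npc2, Abca7, Scap, Apob and Apoc3, and the genes sharing a span, were named after their values were seen. Likeness to other genes' patterns was not computed, each gene having 1 value per group.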

Additional observations from a re-analysis of the deposited data

How the results depend on the processing

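The number of members called, 1 and lower, was the same at q under 0.1, with an absolute test statistic of at least 2 and with p-values adjusted again over loci of at least 1 FPKM (q = 0.0286 for Nr1h3 after that adjustment of the authors' deposited p-values). It was 0 at q under 0.01, and 0 where joined loci were left out, which removes the Nr1h3 row by construction. No member was called higher at q under 0.1. Abcg1 and Mylip came to 0.0979 and 0.0986 when adjusted again over loci of at least 1 FPKM. The members' median difference of 0.0274 was 0.0276 with a pseudocount of 0.1 FPKM, 0.0277 with none, 0.0265 after centring on the median of tested loci of at least 1 FPKM, 0.0655 after upper quartile scaling and 0.0734 without joined loci. No member's difference changed sign under these pseudocounts and scalings. Over the lists, 2 loci were called higher, 4 at q under 0.1 and 1 without joined loci. The number called lower was 10, with 9 at q under 0.01, 12 at q under 0.1 and 9 without joined loci. Over all tested loci 0.751% were called higher and 1.69% lower at q under 0.05. The Abca1 window no longer matched with at most 2 mismatches, an alternative chosen after seeing the data, which left 0 members' windows and 3.02% of all windows. Leaving out single samples could not be run on 1 value per group. No paired analysis was possible because the table holds 1 value per group and none per sample. The depth behind each value is unknown.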
